A study of Mus musculus with 102 samples.

Results

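The genes described here encode the subunits of the oxidative phosphorylation system, measured across the adult mouse central nervous system. They were all genes named alone by a probe set whose symbol begins with Nduf followed by a, b, c, s or v, Uqcr, Cox4 to Cox8 or Atp5, or is *Sdha*, *Sdhb*, *Sdhc* or *Sdhd*. This gave 90 of the 18193 genes that a probe set names alone, with 179 probe sets, and each gene was represented by its probe set with the highest mean over 48 regions. Of the 90 genes, 34 belong to complex I, 4 to complex II, 8 to complex III, 19 to complex IV and 17 to complex V, and 8 are complex I assembly factors (*Ndufaf1* to *Ndufaf8*) that the prefix takes in. Complex IV here includes *Ndufa4* and *Ndufa4l2*, which were named for complex I, and *Cox7a2l*, a factor that joins complexes into supercomplexes. With it and the assembly factors set aside, 81 genes code for subunits.

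RNA came from male Balb/c mice of 7 to 8 weeks, kept in light and dark cycles or in constant darkness. Each of 51 regions was punched from slices, and its RNA was pooled over mice and over 6 time points 4 h apart. The procedure was run 2 times, so each region has 2 Affymetrix mouse expression arrays. The main comparisons used the 96 arrays of 48 regions, of which 2 lie in the pons, 2 in the spinal cord, 3 in the cerebellum, 6 in the thalamus, 6 in the mesencephalon, 17 in the telencephalon and 12 in the hypothalamus. The retina, pituitary and pineal were set against these 48. All animals shared strain and sex. The comparisons were between regions, which also differed in the sampling period in which they were collected.

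Oxidative phosphorylation is the last stage of respiration in mitochondria. Complex I passes electrons from NADH and complex II from succinate to ubiquinone, complex III passes them to cytochrome c, and complex IV, cytochrome c oxidase, gives them to oxygen. Complexes I, III and IV pump protons, and complex V, the ATP synthase, uses the gradient to make ATP. Neurons depend on this supply for ion pumping and synaptic transmission, and several subunits of complex IV exist in a usual form and in a form known from muscle, heart, testis or lung.

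The deposited values are log2 signals, so that a difference of 1 is a 2-fold change, and the median signal of an array lay between 7.32 and 7.46. The number of arrays limits the precision. The residual SD between replicate arrays was 0.0899 in the median member and 0.119 in the median probe set. Regions were collected in 4 sampling periods, and the 5 regions of the 48 in the fourth period all had members below average, as given beside the regional results. Signals of different probe sets were not set against each other. The punches are bulk tissue, so fewer cells of a type and less RNA per cell cannot be told apart.

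Promoter windows of members close to the common pattern, and of tissue-restricted forms, are shown first. RefSeq windows on GRCm38.p6, running from 250 bases before to 50 bases after the start, were at hand for 74 of the 90 genes. *Ndufa9*, *Ndufb2* and *Uqcrh* are the members closest to the common pattern described below that hold any of the motifs searched, and *Cox6b2* and *Cox8b* code for tissue-restricted forms of complex IV subunits. Capitals mark a match to a motif core. The windows are Ndufa9 (chr6:126849095-126849394, minus strand), Ndufb2 (chr6:39592315-39592614, plus strand), Uqcrh (chr4:116075021-116075320, minus strand), Cox6b2 (chr7:4753045-4753344, minus strand) and Cox8b (chr7:140900397-140900696, minus strand).
Ndufa9: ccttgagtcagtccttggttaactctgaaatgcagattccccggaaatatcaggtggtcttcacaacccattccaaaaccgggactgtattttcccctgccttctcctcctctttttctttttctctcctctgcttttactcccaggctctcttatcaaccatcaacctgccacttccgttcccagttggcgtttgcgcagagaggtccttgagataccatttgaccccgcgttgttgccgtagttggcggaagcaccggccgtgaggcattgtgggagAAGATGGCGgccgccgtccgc
Ndufb2: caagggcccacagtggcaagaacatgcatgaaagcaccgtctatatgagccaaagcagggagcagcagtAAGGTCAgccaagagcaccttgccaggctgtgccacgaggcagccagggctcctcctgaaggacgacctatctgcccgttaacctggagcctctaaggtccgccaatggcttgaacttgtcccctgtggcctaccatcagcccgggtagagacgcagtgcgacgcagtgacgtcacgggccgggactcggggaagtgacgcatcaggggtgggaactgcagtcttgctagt
Uqcrh: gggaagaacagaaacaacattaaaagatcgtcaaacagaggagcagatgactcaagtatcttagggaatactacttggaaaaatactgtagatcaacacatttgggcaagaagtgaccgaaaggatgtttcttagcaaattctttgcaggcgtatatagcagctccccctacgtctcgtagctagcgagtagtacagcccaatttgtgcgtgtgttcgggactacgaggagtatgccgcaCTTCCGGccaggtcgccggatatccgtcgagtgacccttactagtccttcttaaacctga
Cox6b2: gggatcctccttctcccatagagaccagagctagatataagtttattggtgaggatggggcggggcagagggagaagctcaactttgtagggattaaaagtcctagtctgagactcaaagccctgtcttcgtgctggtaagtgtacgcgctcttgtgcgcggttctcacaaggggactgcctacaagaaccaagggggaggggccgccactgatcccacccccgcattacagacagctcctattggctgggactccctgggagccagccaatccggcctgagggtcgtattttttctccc
Cox8b: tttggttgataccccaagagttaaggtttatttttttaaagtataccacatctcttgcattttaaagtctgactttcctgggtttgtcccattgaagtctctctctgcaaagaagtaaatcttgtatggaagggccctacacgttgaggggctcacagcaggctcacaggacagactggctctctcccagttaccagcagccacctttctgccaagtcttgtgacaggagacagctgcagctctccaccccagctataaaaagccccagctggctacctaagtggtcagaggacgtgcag

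Motif cores were searched on both strands. NRF1, nuclear respiratory factor 1, is known as a regulator of respiratory chain genes, and its core GCGCATGC was found in 11 of the 74 windows (14.9%), against 750 of all 27025 windows in the table (2.78%). The ETS core CCGGAAG, the kind of site that GABP binds, was found in 19 windows (25.7%), against 9.08% of all. The YY1 core AAGATGGCG was found in 7 windows (9.46%), against 1.49% of all, and the ERR core AAGGTCA in 8 windows (10.8%), against 4.66% of all. Any of the 4 cores was present in 34 windows (45.9%), against 16.7% of all. Matches overlapped in 6 windows, in each case matches of the same core. The windows of 4 genes for tissue-restricted forms, *Cox6b2*, *Cox7a1*, *Cox7b2* and *Cox8b*, held 0 of these letters, which says only that these letters are not in these windows. In the windows printed, the capitals in *Ndufa9* are the YY1 core, those in *Ndufb2* the ERR core and those in *Uqcrh* the ETS core on the opposite strand.

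The members were expressed at different levels from region to region, mostly together. By the moderated F test of limma over 48 regions, 89 of 90 members differed between regions at an adjusted p under 0.05, but so did 93.1% of all genes. The exception was *Cox4i2*, the lung form of subunit 4, with regional means within 0.39 of each other (F = 1.54, adjusted p = 0.0671). To follow the common pattern, a module level was computed for each array as the mean over 90 members of the log2 signal relative to the gene's mean over 48 regions. The regional module level ran from -0.30 to 0.35, a 1.57-fold span. Replicate arrays differed by 0.0557 in the median region and by at most 0.18, with a within-region SD of 0.0521, against an SD of 0.16 between regions.

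The medial vestibular nucleus (MVe), which receives signals of balance, stood at 0.34 and 0.34 in its 2 arrays. The cerebellar nucleus, the output of the cerebellum, stood at 0.40 and 0.30, and the anterior spinal cord, which holds the motor neurons, at 0.25 and 0.35. The motor relay of the thalamus (VA/VL) stood at 0.26 and 0.24. These are regions of motor and vestibular pathways, and all 8 of their arrays lay above the 2 arrays of every hypothalamic and telencephalic region. The somatosensory relay of the thalamus (VPM/VPL) came next, at 0.27 and 0.20, and its 2 arrays also lay above all of those. Its regional level was only 0.0101 below that of VA/VL, less than the within-region SD. The grouping by motor and vestibular pathways therefore depends on where the ranking is cut. At the other end, the dorsal subparaventricular zone stood at -0.28 and -0.32, the piriform cortex at -0.26 and -0.28, and the median eminence at -0.29 and -0.22. The suprachiasmatic nucleus, the circadian clock, stood at -0.25 and -0.18. Ordered by level, neighbouring regions were closer than the within-region SD in 46 of 47 pairs.

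**Figure D1:**
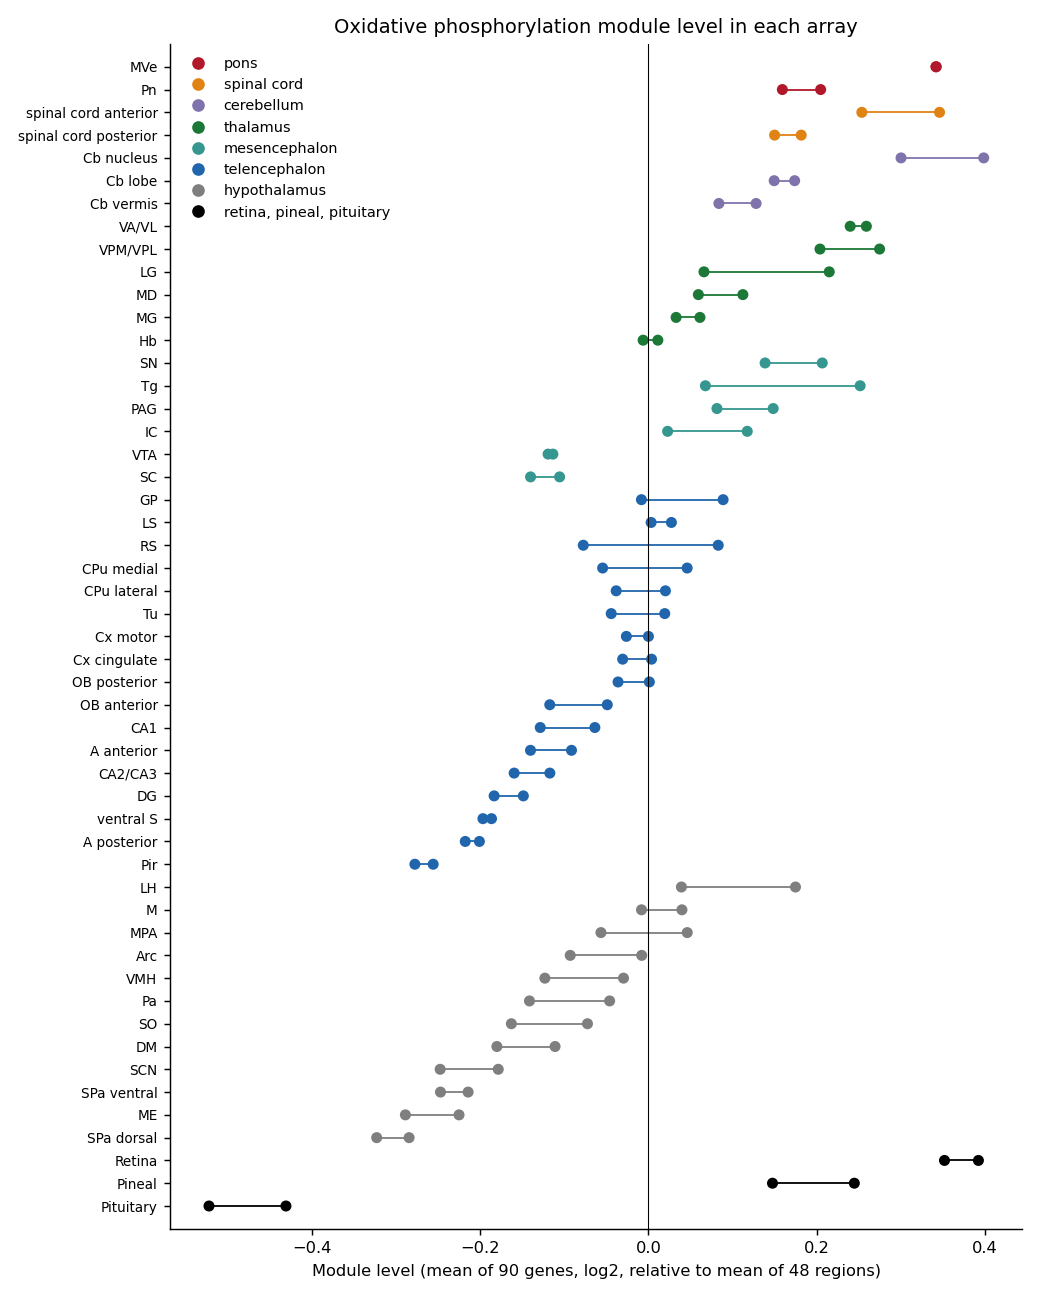
Module level of 90 oxidative phosphorylation genes (log2, relative to the mean of 48 regions) in each region, with a point for each of its 2 arrays joined by a line and coloured by division. The pons, spinal cord and cerebellum lie above 0 in all arrays, and the level ranges from -0.30 in the dorsal subparaventricular zone to 0.35 in the cerebellar nucleus, with the pituitary lower still at -0.43 and -0.52 and the retina at 0.35 and 0.39.

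Each division was then compared with all other regions of the 48. The pons had 73 members higher and 1 lower (limma, adjusted p under 0.05 over all probe sets), against 23.6% and 18.6% of all genes. The median member was 0.29 higher, a 1.22-fold difference, while the median gene was 0.03 higher. In the spinal cord 72 members were higher and 4 lower, against 22.5% and 21.5% of all genes, with a median of 0.27. The cerebellum had 72 higher and 7 lower, against 25.7% and 34.7% of all genes, with a median of 0.26. In these 3 divisions of hindbrain and cord, most members were higher and few were lower.

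The thalamus had 66 members higher and 4 lower, against 21.0% and 26.9% of all genes, and a median member difference of 0.15. Thalamic module levels ran from 0.0025 in the habenular nucleus to 0.25 in VA/VL, with a median of 0.11. The mesencephalon had 43 higher and 7 lower, against 22.2% and 16.8% of all genes, with a median of only 0.07. Its regions were mixed, with module levels from -0.12 in the superior colliculus to 0.17 in the substantia nigra. The mesencephalic count of members higher was smaller without replicate 2, and was 22 with cyclic loess normalization of all arrays. The share of all genes was not counted in these refits. The telencephalon and hypothalamus were on the low side. The telencephalon had 6 members higher and 67 lower, against 26.8% and 35.7% of all genes, and a median of -0.12 (-0.05 after cyclic loess). Its regional module levels ran from -0.27 in the piriform cortex to 0.04 in the globus pallidus. Their median was -0.02, so the division was not low throughout. The motor and cingulate cortex each stood at -0.01. The hypothalamus had 6 higher and 64 lower, against 33.0% and 30.5% of all genes, and a median of -0.17. Its regional module levels had a median of -0.11 and reached 0.11 in the lateral hypothalamus. Set against the hypothalamus, the thalamus had 72 members higher and 6 lower, against 26.5% and 31.9% of all genes, with a median of 0.24.

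Sampling period moved with these results. The regional module level had a median of -0.0042 in the first period (17 regions), 0.08 in the second (18), -0.12 in the third (8) and -0.26 in the fourth (5). Each division was therefore also compared only with regions of its own period. The pons then had 65 members higher and 2 lower, against 16.7% and 12.9% of all genes, and a median member difference of 0.21. The spinal cord had 58 higher and 4 lower, against 19.9% and 17.2% of all genes, with a median of 0.17. The cerebellum had 70 higher and 8 lower, against 26.9% and 35.9% of all genes, with a median of 0.20. Within periods the thalamus had 56 higher and 7 lower, against 19.6% and 25.2% of all genes, with a median of 0.10. The mesencephalon had 20 higher and 7 lower, against 20.0% and 14.3% of all genes, with a median of 0.02, so that its share of members higher was near that of all genes. The telencephalon had 12 higher and 56 lower, against 32.2% and 35.7% of all genes, and the hypothalamus 15 higher and 50 lower, against 32.0% and 26.9%, with a median of -0.08 in each. The array's own controls for RNA integrity also differed by period. The 3′ minus 5′ signal of *Gapdh* had a median of -0.15 in the first period and of 0.16 in the fourth, and over 48 regions it correlated with the module level at r = -0.44. That of beta-actin had medians of 0.64, 1.01, 0.81 and 1.46 in the 4 periods in order, and correlated with the module level at r = -0.19. Both r are descriptions over regions that share arrays and sampling periods, and their part in the result was not tested.

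**Figure D2:**
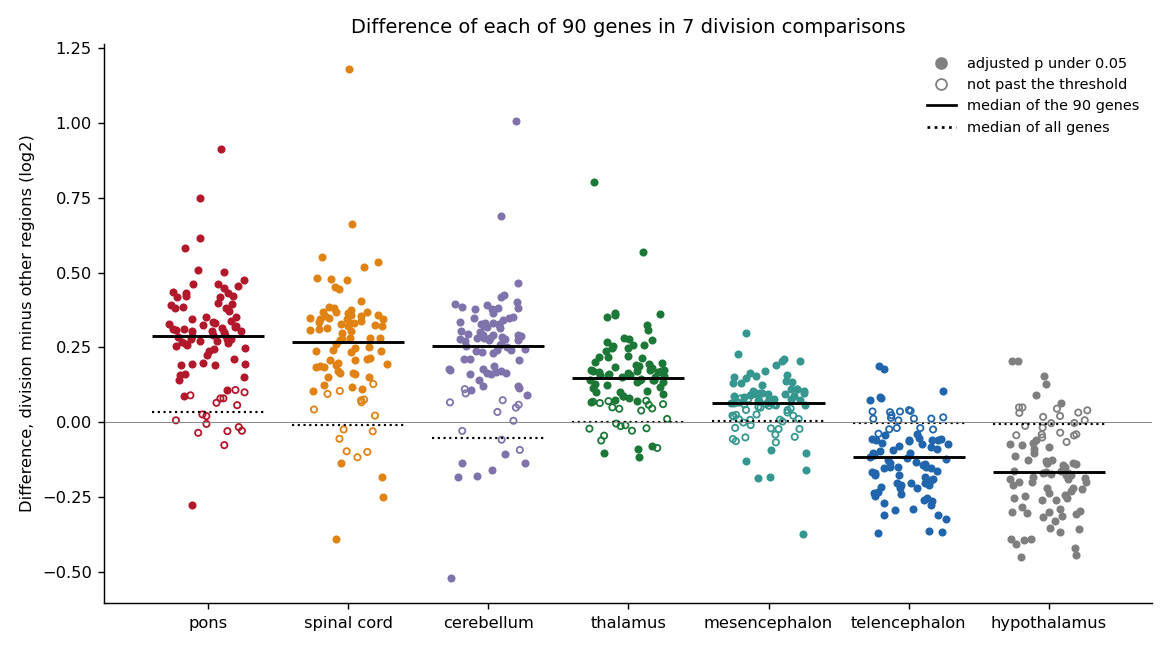
Log2 difference of each of 90 members between a division and all other regions of the 48, with filled points past the limma threshold, solid lines at the median of the members and dotted lines at the median of all genes. The solid lines lie at 0.29 in the pons and -0.17 in the hypothalamus, while the dotted lines stay between -0.05 and 0.03.

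The complexes followed a common course. Over 48 regions the mean level of complex I correlated with that of complex III at r = 0.92 and with that of complex V at r = 0.94, and the closest pair was complex III and V at 0.97. Complex II, succinate dehydrogenase, which also works in the citric acid cycle, was less close to complex IV (0.67). The assembly factors correlated with complex I, which they help to build, at 0.87, and with complex IV at 0.62. These r describe regions that share arrays and division. In the pons 31 of 34 complex I genes and 4 of 4 of complex II were higher, against 23.6% of all genes. Of complex III 6 of 8 were higher there, of complex IV 11 of 19 and of complex V 16 of 17. In the hypothalamus 23 of 34 complex I genes and 2 of 4 of complex II were lower, against 30.5% of all genes. Of complex III 7 of 8 were lower there, of complex IV 12 of 19 and of complex V 16 of 17. In the telencephalon 29 of 34 complex I genes (median -0.18) and 4 of 4 of complex II (-0.19) were lower, against 35.7% of all genes. Of complex III 6 of 8 were lower there (-0.11), of complex IV 9 of 19 (-0.02) and of complex V 13 of 17 (-0.08). No difference between complexes was tested.

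**Figure D3:**
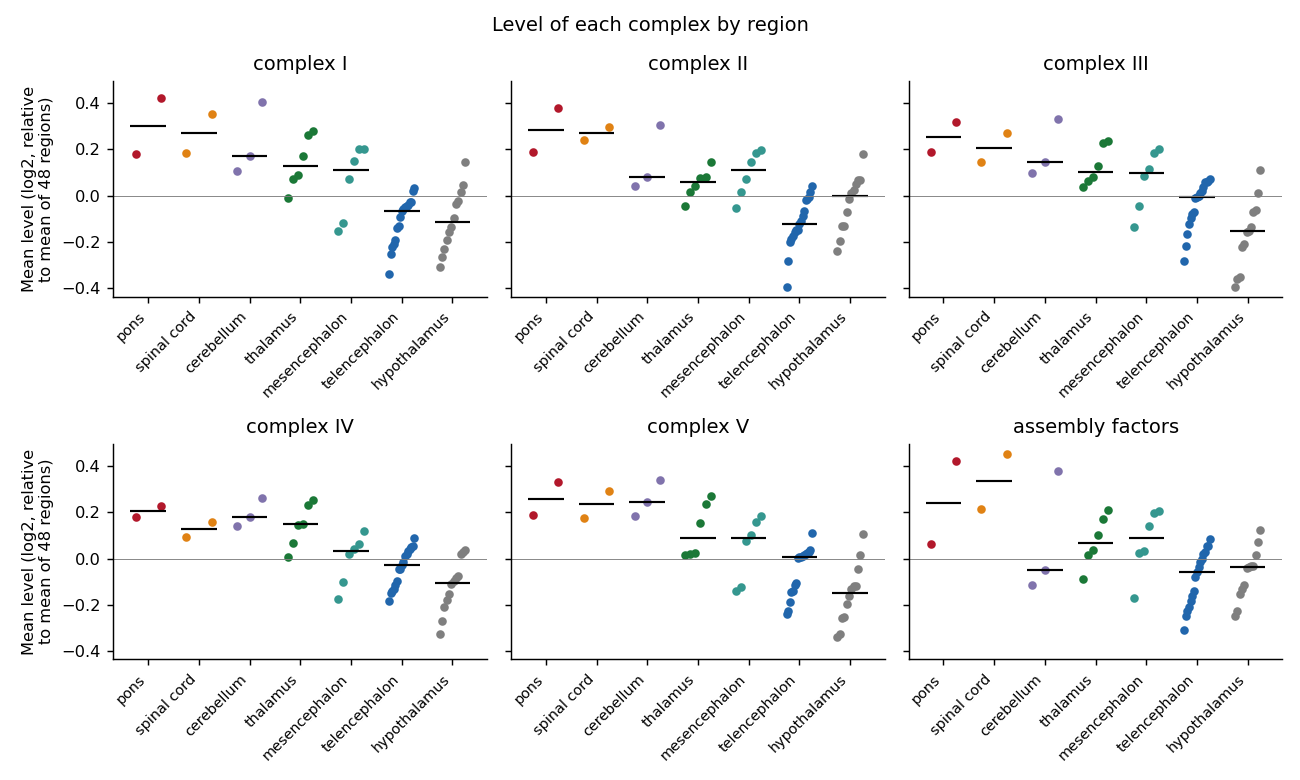
Mean level of the genes of each complex and of the assembly factors (log2, relative to the mean of 48 regions), with a point for each region and a bar at the median of each division. The medians of the pons and spinal cord lie above 0 and that of the hypothalamus below 0 in all 6 panels, and 2 of the 3 cerebellar regions lie below 0 for the assembly factors.

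The Sdh genes code for the 4 subunits of complex II. *Sdhb*, the iron-sulphur subunit, had signals of 12.38 and 12.39 in the medial vestibular nucleus, and 11.40 and 11.45 in the dorsal subparaventricular zone, where it was at its lowest. *Sdha*, the flavoprotein that oxidizes succinate, was lower in the telencephalon by 0.31 ± 0.02 (limma difference ± SE, adjusted p = 1.98e-22) and higher in the pons by 0.43. *Sdhd*, a membrane anchor, was higher in the spinal cord by 0.41 and lower in the telencephalon by 0.25. *Sdhc*, the other anchor, varied little, with regional means within 0.48 of each other. Its differences reached 0.14 in the pons (adjusted p = 0.0118) and -0.14 in the telencephalon (adjusted p = 6.66e-09). In the hypothalamus *Sdha* and *Sdhc* did not pass the threshold, with differences of 0.02 and 0.03.

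Genes closest to the common pattern came from several complexes. *Ndufa9*, an accessory complex I subunit beside the quinone site, followed the module level computed without it at r = 0.95 over 48 regions. Its signals were 11.78 and 11.74 in the cerebellar nucleus and 10.61 and 10.78 in the median eminence. *Atp5o*, in the stalk of the ATP synthase, *Cox5a*, a complex IV subunit, *Ndufb2* and *Uqcrh* followed at 0.92, 0.92, 0.92 and 0.91. The median r was 0.77 over the 90 members and -0.03 over the 18103 other genes, and 72 members were above 0.5, as were 6.55% of the other genes. The genes outside the list with the highest r included *Mrpl42*, *Mrpl18* and *Mrpl12* of the mitochondrial ribosome, at 0.92, 0.91 and 0.89, *Mpc1*, the pyruvate carrier, at 0.88, and *Cyc1*, the cytochrome c1 of complex III, at 0.87. Also among them were *Cmc2*, *Ss18l2* and *Mrps36*, at 0.89, 0.88 and 0.88.

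The module correlated below 0 with 5 members. *Cox7c* (r = -0.16) and *Ndufb4* (-0.09) were each represented by a dim probe set, with highest regional means of 6.96 and 6.71. *Ndufa4l2* (-0.05), *Cox8c* (-0.02) and *Cox6a2* (-0.0045) code for alternative forms of subunits. Of 8 genes for such forms, *Cox4i2*, *Cox8c* and *Ndufa4l2* hardly varied, with ranges of 0.39, 0.48 and 0.50, whereas *Cox6a2*, *Cox6b2* and *Cox8b* had ranges of 2.48, 2.22 and 1.75. These 3 wide ranges came from different regions. The usual subunit 4, *Cox4i1*, was 0.42 higher in the pons, 0.35 higher in the cerebellum and 0.31 lower in the hypothalamus.

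*Cox6a2*, the heart and muscle form of subunit 6a, was highest in the mediodorsal thalamic nucleus, at 9.80 and 10.13. The lateral geniculate body followed with 9.10 and 8.78, VA/VL with 8.81 and 9.02, and the retrosplenial cortex with 8.66 and 8.96. The mediodorsal arrays lay above those of all other 47 regions, by 1.91 ± 0.08 on average (limma ± SE, adjusted p = 1.99e-26), and the lowest signals were 7.40 and 7.57 in the suprachiasmatic nucleus. In the thalamus the regional means ran from 8.04 to 9.97, with a median of 8.77, against 7.48 to 8.81 elsewhere, with a median of 7.99. The thalamic difference was 0.80 ± 0.04 (adjusted p = 6.42e-27). *Cox6a2* was lower in the cerebellum (-0.52), spinal cord (-0.39), mesencephalon (-0.37) and pons (-0.28), and so went against the module there. The usual form, *Cox6a1*, was higher in the thalamus by 0.31, in the cerebellum by 0.32 and in the pons by 0.19. *Cox7b2*, a testis form of subunit 7b, had its highest signals in the mediodorsal nucleus as well (5.40 and 5.51, against 4.34 and 4.52 in the suprachiasmatic nucleus), though its probe set was dim throughout.

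*Cox6b2*, the testis form of subunit 6b, was highest in the supraoptic nucleus, at 9.10 and 8.87, followed by the cerebellar lobe with 8.67 and 8.49 and the vermis with 8.27 and 8.47. The supraoptic nucleus holds the large neurons that secrete vasopressin and oxytocin. It exceeded the mean of the other regions by 1.68 ± 0.11 (limma ± SE, adjusted p = 7.99e-20), while the module level of this nucleus was -0.07 and -0.16. In the cerebellum, *Cox6b2* had regional means of 7.88, 8.37 and 8.58, against 6.77 to 8.98 elsewhere with a median of 7.22, a difference of 1.01 ± 0.06 (adjusted p = 1.69e-20). In the telencephalon it was lower by 0.37. In the supraoptic nucleus all 12 leptomeningeal markers were also higher (median 3.02), as were all 11 oligodendrocyte markers (1.61), and 11 of 12 neuron markers were lower (-1.24). Their part in the *Cox6b2* result was not tested. The usual form, *Cox6b1*, differed by 0.16 in the cerebellum and by -0.25 in the hypothalamus.

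*Cox8b*, the heart and muscle form of subunit 8, was highest in the cerebellar nucleus (8.36 and 8.29) and in the pontine nucleus (8.63 and 7.89), then in the anterior spinal cord (7.34 and 7.54) and in CA2/CA3 of the hippocampus (7.41 and 7.40). Its median over regions was 6.83. The difference was 1.44 ± 0.09 in the cerebellar nucleus (limma ± SE, adjusted p = 8.31e-20). The other 2 cerebellar regions were close to that median, at 6.70 and 6.67 in the vermis and 6.93 and 6.69 in the lobe. *Cox7a1*, the muscle form of subunit 7a, was highest in the anterior spinal cord (7.08 and 6.91) and was 0.66 ± 0.07 higher in the spinal cord (adjusted p = 3.00e-11), whereas the usual *Cox7a2* was 0.24 higher there. In the anterior cord 5 of 8 skeletal muscle markers were also higher and 0 lower, with a median of 0.37. The mean level of the 8 markers was 0.07 in replicate 1 and 0.64 in replicate 2 of the anterior cord. *Cox7a1* stood at 7.08 in replicate 1 and 6.91 in replicate 2. The part of muscle RNA in the *Cox7a1* difference was not tested.

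**Figure D4:**
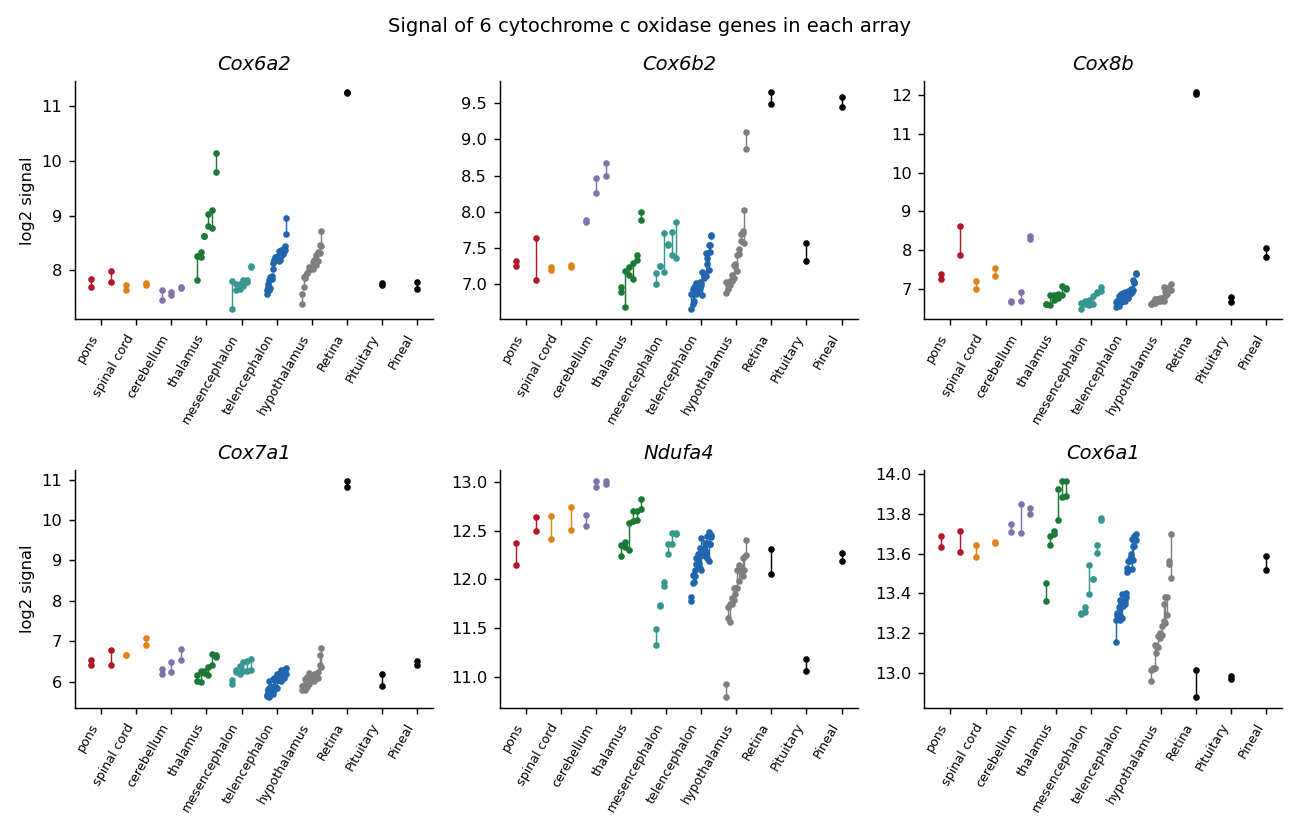
Log2 signal of *Cox6a2*, *Cox6b2*, *Cox8b*, *Cox7a1*, *Ndufa4* and *Cox6a1*, with a point for each array, the 2 arrays of a region joined by a line, and regions grouped by division with retina, pituitary and pineal in black. Among the 48 regions *Cox6a2* peaks in a thalamic one at 9.80 and 10.13 and *Cox6b2* in a hypothalamic one at 9.10 and 8.87, and the retina lies above all 48 for *Cox6a2*, *Cox6b2*, *Cox8b* and *Cox7a1*.

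*Ndufa4*, a complex IV subunit despite its name, had a range of 2.14. Its signals were 13.01 and 12.98 in the cerebellar lobe, and 10.79 and 10.92 in the dorsal subparaventricular zone. It was 0.69 ± 0.04 higher in the cerebellum (limma ± SE, adjusted p = 8.61e-21), 0.36 higher in the thalamus and 0.45 ± 0.02 lower in the hypothalamus (adjusted p = 3.72e-24). The ventral tegmental area was low too, at 11.33 and 11.48, and so was the ventral subparaventricular zone, at 11.71 and 11.60. These 3 low regions were all taken in the fourth sampling period. *Cox8a*, the usual subunit 8, had the same 3 regions as its lowest, at 12.32 and 12.34, 12.50 and 12.48, and 12.51 and 12.47, with a median of 13.29 over regions. It was 0.42 ± 0.02 lower in the hypothalamus (adjusted p = 2.99e-29) and was higher in the telencephalon by 0.19.

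Subunit c of the ATP synthase, which forms the rotor ring, has 3 genes with the same mature protein. *Atp5g1* followed the pattern of the module, with 0.33 in the pons, 0.26 in the thalamus and -0.30 in the hypothalamus. *Atp5g3* did so more weakly, with 0.19 in the pons and -0.11 in the hypothalamus, and had a range of only 0.58. *Atp5g2* did not pass the threshold in the pons (0.02) or the hypothalamus (0.02), and its highest signals were 11.83 and 11.95 in the posterior olfactory bulb. *Atp5l*, in the membrane part of the enzyme, was 0.47 ± 0.04 higher in the cerebellum (limma ± SE, adjusted p = 1.19e-14). *Atp5b*, the catalytic beta subunit, was highest in VA/VL (13.84 and 13.69) and lowest in the median eminence (12.55 and 12.65).

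Among complex I genes, *Ndufa10* had a thalamic pattern. Its regional means ran from 11.51 to 12.36 in the thalamus, with a median of 12.18, against 11.01 to 12.06 elsewhere, with a median of 11.50. The difference was 0.57 ± 0.04 (limma ± SE, adjusted p = 2.19e-18), and against the hypothalamus it was 0.76. In the cerebellum *Ndufa10* was lower by 0.18, with 11.12 and 11.16 in the vermis. *Ndufb10* was 0.62 ± 0.07 higher in the pons, *Ndufb8* 0.23 higher in the mesencephalon, *Ndufa6* 0.37 lower in the telencephalon and *Ndufb9* 0.44 lower in the hypothalamus. In complex III, *Uqcrb* was flat, with a range of 0.51, and *Uqcr11* was higher in the telencephalon by 0.18 and highest in the medial caudate putamen (11.62 and 11.56).

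The assembly factor *Ndufaf2* gave the largest spinal cord difference of the members. Its signals were 10.25 and 10.27 in the anterior spinal cord, 9.95 and 10.17 in the medial vestibular nucleus and 9.74 and 10.04 in the posterior cord, and 8.21 and 8.36 in the piriform cortex. The median over regions was 8.90, so these hindbrain and cord regions stood clear of most others. The spinal cord exceeded the other regions by 1.18 ± 0.08 (limma ± SE, adjusted p = 8.50e-19) and the pons by 0.75. *Ndufaf1*, which acts early in complex I assembly, was 0.55 higher in the cord, and *Ndufaf5* was 0.30 higher in the mesencephalon. *Ndufaf6* went the other way, at 0.20 higher in the hypothalamus, and *Ndufaf3* had a range of 0.57. The supercomplex factor *Cox7a2l* was likewise 0.20 ± 0.02 higher in the hypothalamus (adjusted p = 7.73e-12), with 11.79 and 11.73 in the median eminence.

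The 4 regions with the highest and the 4 with the lowest median member difference were set against the other 47. They were chosen for that level, so their counts are a description. VPM/VPL, just below the cut, had 62 members higher and 0 lower, against 13.3% and 16.3% of all genes, with a median of 0.24. MVe had 74 members higher and 1 lower, against 15.8% and 14.9% of all genes, and a median of 0.37. The cerebellar nucleus had 77 and 1, against 18.6% and 16.3%, with a median of 0.36. The anterior spinal cord had 71 and 3, against 20.6% and 19.3%, with a median of 0.36, and VA/VL had 61 and 0, against 14.2% and 16.1%, with a median of 0.26. Set against only the regions of their own sampling period, a comparison chosen after seeing the data, MVe had 64 members higher and 1 lower, against 10.6% and 8.75% of all genes, with a median of 0.28. The cerebellar nucleus had 71 and 2, against 15.2% and 11.2%, with a median of 0.27. The anterior cord had 61 and 3, against 18.4% and 15.3%, and VA/VL 60 and 0, against 16.0% and 15.5%, with a median of 0.25 in each. Without its replicate 1, VA/VL had fewer members higher, and the share of all genes was not counted. In MVe, the cerebellar nucleus and the anterior cord *Ndufaf2* was among the 3 members with the largest differences, and in VA/VL these were *Cox6a2* (0.84), *Ndufa10* (0.79) and *Ndufs3* (0.61), a core subunit of complex I.

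Most of the lowest regions came from the fourth sampling period. All 5 of its regions had module levels below 0, so region and period cannot be told apart there. The dorsal subparaventricular zone had 2 members higher and 65 lower, against 20.6% and 13.9% of all genes, and a median of -0.32. The piriform cortex had 1 and 64, against 18.3% and 22.2%, with a median of -0.28, and the median eminence 7 and 60, against 25.2% and 21.2%, with a median of -0.26. All 3 were taken in the fourth period and were also set against its 4 other regions. There the dorsal subparaventricular zone had 2 members higher and 21 lower, against 11.3% and 7.21% of all genes, and a median of -0.08. The piriform cortex had 17 and 24, against 15.7% and 25.1%, with a median of -0.05, and the median eminence 15 and 19, against 19.7% and 17.9%, with a median of -0.06. In the piriform cortex and the median eminence these shares of members were near those of all genes. The suprachiasmatic nucleus, of the third period, had 3 higher and 60 lower, against 27.2% and 31.3%, and a median of -0.24. Within its period 4 members were higher and 38 lower, against 23.5% and 24.0%, with a median of -0.14 beside -0.05 for all genes. Without replicate 1 of this nucleus, fewer members were lower against the other 47 regions, and the share of all genes was not counted. With cyclic loess normalization, chosen as an alternative scaling, the median was -0.17 in the piriform cortex and -0.36 in the suprachiasmatic nucleus.

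Genes differed in how they were low. In the dorsal subparaventricular zone *Ndufa4* was lower by 1.38 ± 0.07 (limma ± SE, adjusted p = 1.18e-22), *Cox8a* by 0.92 and *Uqcrq*, a complex III subunit, by 0.90. In the piriform cortex *Ndufa6* was lower by 0.81 and *Ndufs7*, a core subunit of complex I, by 0.72. In the median eminence *Ndufb9* was lower by 0.98, *Ndufaf5* by 0.95 and *Atp5o* by 0.73, while *Cox7a2l* was 0.59 higher. In the suprachiasmatic nucleus *Cox6a2* was lower by 0.62, *Cox5a* by 0.55 and *Ndufv1*, which binds NADH, by 0.53.

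Other genes of mitochondrial metabolism were compared in the same fits. Of 16 measured genes of the citric acid cycle and pyruvate dehydrogenase, 14 were higher and 0 lower in the pons, in the cerebellum and in the spinal cord, and 13 were higher and 1 lower in the thalamus. Of all genes, 21.0% to 25.7% were higher and 18.6% to 34.7% lower in these divisions. In the hypothalamus 1 was higher and 15 lower, against 33.0% and 30.5% of all genes, with a median of -0.27. The mean of the list correlated with the module level at r = 0.84 over 48 regions. The mitochondrial ribosome (76 genes, r = 0.80) had 41 higher and 2 lower in the pons, against 23.6% and 18.6% of all genes. In the hypothalamus 29 of its genes were higher and 28 lower, near the shares of all genes. Among 36 assembly factors outside the prefixes, 16 were higher and 1 lower in the pons, against the same 23.6% and 18.6% of all genes.

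The cytosolic ribosome was followed through the 54 genes whose symbols begin with Rpl or Rps. Of these, 45 were higher and 3 lower in the hypothalamus, against 33.0% and 30.5% of all genes, with a median of 0.28. In the thalamus 1 was higher and 42 lower, against 21.0% and 26.9% of all genes. The mean level of the 54 genes had r = -0.13 with the module level. The list includes 8 genes that are not ribosomal proteins, 6 of them Rps6k kinases, with *Rps19bp1* and the pseudogene *Rps15a-ps6*. Among the 46 others, a list made after seeing the data, 43 were higher and 0 lower in the hypothalamus (median 0.30), 0 were higher and 38 lower in the thalamus (median -0.17), and r was -0.07. Of 18 genes known to regulate mitochondrial genes, 2 had r above 0.5. *Esrra*, an oestrogen-related receptor, had r = 0.75 and its coactivator *Ppargc1a*, known as PGC-1alpha, r = 0.66. *Nrf1* (-0.23), *Gabpa* (-0.30), *Yy1* (-0.33) and *Tfam*, the factor that packs mitochondrial DNA (-0.07), had r below 0. An r over 48 regions that share arrays is a description.

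Markers of cell types moved with the divisions as well. Of 11 oligodendrocyte markers, 10 were higher in the pons (median 0.99), 11 in the spinal cord (1.92), 10 in the cerebellum (0.53), 11 in the thalamus (0.95) and 11 in the mesencephalon (0.91), and 11 were lower in the telencephalon (-1.06) and in the hypothalamus (-0.55). Their mean level correlated with the module level at r = 0.60, and ran from 1.62 to 1.79 in the spinal cord and from -2.48 to 1.15 in the telencephalon. In the suprachiasmatic nucleus 11 of 11 oligodendrocyte markers were higher, with a median of 1.67, and 60 members were lower. In MVe, with 74 members higher, the marker median was 0.59. Of 12 neuron markers, 9 were lower in the hypothalamus (median -0.58) and 11 in the median eminence (-1.28), but 8 were higher in the piriform cortex (0.50), where 64 members were lower. The neuron list had r = 0.31, astrocyte 0.41, endothelial 0.35, skeletal muscle 0.34, mural cell 0.25, blood 0.20, microglia -0.07, choroid plexus -0.11, photoreceptor -0.16, leptomeningeal -0.19 and ependymal -0.28. The part of cell composition in the members' differences was not tested.

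**Figure D5:**
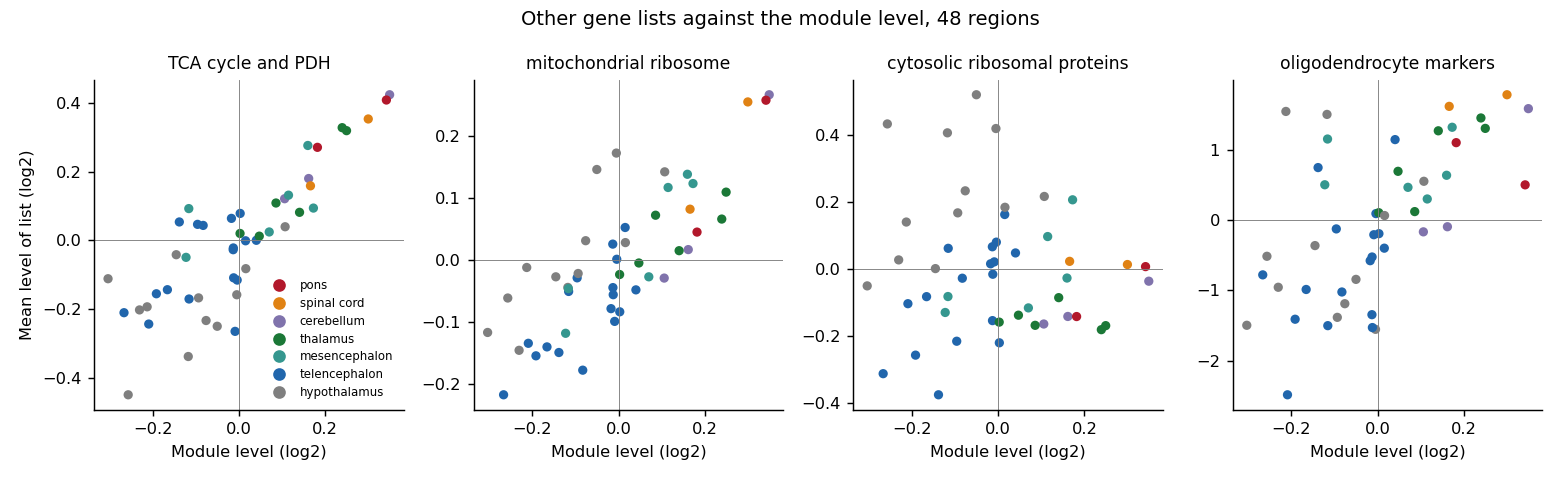
Mean level of 4 gene lists (y axis, log2 relative to the mean of 48 regions) against the module level (x axis, log2), with a point for each of 48 regions coloured by division. The citric acid cycle list rises with the module (r = 0.84), that of 46 cytosolic ribosomal protein genes does not (r = -0.07), and among the oligodendrocyte markers (r = 0.60) some hypothalamic regions are high at a low module level.

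Some members varied less or more than other probe sets of like signal. The variability score is the log2 ratio of the SD over 48 regions to the running median SD of 500 probe sets of like mean. It was under -1 in 7 of 90 members (*Cox8c*, *Sdhc*, *Cox4i2*, *Uqcrb*, *Ndufaf3*, *Ndufaf8* and *Ndufa4l2*), against 7.00% of all genes, a share near that background. It was over 1 in 2 members, *Cox6b2* (1.23) and *Cox8b* (1.02), against 14.4% of all genes. The median score was -0.26 in the members and -0.08 in all genes.

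The tissues outside the 48 regions differed from each other. The retina had 55 members higher and 12 lower, against 35.4% and 37.1% of all genes, and the median member was 0.22 higher. The pineal had 45 higher and 14 lower, against 32.4% and 24.4%, with a median of 0.17. The pituitary had 6 higher and 66 lower, against 30.1% and 25.6%, with a median of -0.47. With cyclic loess normalization these medians were 0.36, 0.20 and -0.22, so the size of these differences depended on the scaling. There 73 members were higher in the retina and 52 lower in the pituitary, and shares of all genes were not counted.

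In the retina the largest differences were of muscle forms. *Cox8b* had signals of 12.07 and 12.02 in the retina, and its mean over the 48 regions was 6.92, a difference of 5.13 ± 0.09 (limma ± SE, adjusted p = 8.18e-50). *Cox7a1* had 10.81 and 10.98 and differed by 4.70, and *Cox6a2* had 11.25 and 11.24 and differed by 3.15. *Cox6a1* was lower by 0.53 and *Cox8a* by 0.44, while *Cox7a2* was 0.14 higher. All 8 skeletal muscle markers were higher in the retina as well, with a median of 6.09, beside 7 of 7 photoreceptor markers (4.95) and 12 of 12 leptomeningeal ones (3.95). The part of muscle RNA in the rise of *Cox8b*, *Cox7a1* and *Cox6a2* was not tested.

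*Cox6b2* stood at 9.49 and 9.66 in the retina and at 9.58 and 9.45 in the pineal, and exceeded the 48 regions by 2.24 and 2.18. In the pineal 0 of 8 skeletal muscle markers were higher (4 of 7 photoreceptor markers were, with a median of 1.82). In the pineal, beside its 45 members higher, 1 of 12 neuron markers was higher and 9 lower (median -2.92), and 0 of 11 oligodendrocyte markers were higher and 10 lower (-2.61). All 10 astrocyte markers were lower (-2.42), while 11 of 12 leptomeningeal markers (2.82) and 6 of 7 choroid plexus markers (3.43) were higher. Their part in the members' differences was not tested. *Ndufv3*, an accessory subunit of complex I, had its highest signals of all 51 regions in the pineal, at 13.26 and 13.13, a difference of 1.12 ± 0.05 (limma ± SE, adjusted p = 8.11e-30), and *Cox8b* was 1.02 higher there. In the pituitary *Cox5a* was lower by 1.82 ± 0.07 (adjusted p = 1.62e-31), at 10.87 and 10.66, *Ndufaf5* by 1.58 and *Atp5o* by 1.39. *Cox7a2l* and *Atp5g2* were 0.62 and 0.55 higher in the pituitary. All 12 neuron markers were lower in the pituitary, with a median of -1.81, and the part of cell composition there was not tested.

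Several probe sets for 1 gene did not always tell the same story. Over the 51 members with more than 1 probe set, the brightest and the dimmest followed each other over 48 regions at a median r of 0.73, above 0.5 in 30 genes and below 0 in 7. Highest regional means stayed under 7 in 4 members, *Cox7a1*, *Cox7b2*, *Cox7c* and *Ndufb4*. *Cox8c* is named by 2 probe sets that had r = 0.0027 with each other.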

How the data were processed

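Per the labels, each of 51 regions has 2 arrays, titled as replicates 1 and 2, and no hybridisation run is named. The authors used Affymetrix arrays and deposited log2 signals made by RMA (its version is not given in the sources used here). These columns were used as deposited. Control probe sets (64) were left out, which left 45037, and 34945 of them named 1 gene in the platform annotation. For each of 18193 genes the probe set with the highest mean over 48 regions was kept. Linear models with 1 coefficient per region were fitted to all probe sets with limma 3.58.1 in R 4.3.3, and p-values were adjusted by Benjamini-Hochberg per contrast, with a threshold of 0.05. Retina, pituitary and pineal entered a separate fit. The code was tested on simulated data.

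Members named with values were up to 3 per contrast and direction with the largest differences past the threshold, those with the widest and narrowest ranges, the paralogs, the Sdh genes, and those most and least like the module, and a few more were chosen after their values were seen. Members and lists were chosen with earlier results of these data known. The marker and pathway lists came from general knowledge. The 2 arrays of a region come from separate runs of pooled mice, so p-values measure the spread between these pools. Alternatives were a replicate block, a variance trend, cyclic loess, the lowest-mean probe set, dim members or non-subunits left out, within-period contrasts, and arrays or regions left out. Promoter windows came from RefSeq tables on GRCm38.p6, which held 74 of the 90 members.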

Additional observations from a re-analysis of the deposited data

How the results depend on the processing

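Alternatives that left out no replicate gave 211 counts and medians, of which 197 stayed within the spread or within 1.5 times the count. The 38 refits without a replicate are not in this tally. Of the medians, 0 changed sign, whereas counts were graded by size only and could not show a change of direction. Of 134 other counts, mostly small, 28 moved by more. After cyclic loess the median difference was -0.0463 in the telencephalon and 0.195 in the spinal cord, and 22 members were higher in the mesencephalon. With the lowest-mean probe set per gene the spinal cord median was 0.211, and 4 members had a variability score under -1. Within sampling periods the medians were -0.0813 in the hypothalamus, 0.209 in the pons, 0.195 in the cerebellum and 0.168 in the spinal cord, and 20 members were higher and 7 lower in the mesencephalon. Against regions of the same sampling period, a comparison chosen after seeing the data, 38 members were lower and 4 higher in the suprachiasmatic nucleus, 19 and 15 in the median eminence, 24 and 17 in the piriform cortex and 21 and 2 in the dorsal subparaventricular zone. Leaving out 1 replicate gave 11 to 42 members higher in the mesencephalon, 40 to 47 higher in VA/VL and 38 to 49 lower in the suprachiasmatic nucleus. The cause of these shifts was not tested. Apart from the comparisons within sampling periods, shares of all genes were not counted in the refits. With the replicate block 89 members passed the F test, 73 were higher in the pons, 44 in the mesencephalon and 71 in the spinal cord, and 61 were lower in the suprachiasmatic nucleus. Deviations of same-numbered arrays of different regions had a mean correlation of 0.0085 over 1128 pairs of regions. The correlation was above 0.1 in 282 pairs and below -0.1 in 234. A mean near 0 made of both signs does not show that the arrays of different regions are independent, for example within a sampling period. The replicate block takes out only a shift that is the same in all regions, and shifts shared within a period were not modelled. With 2 arrays per region and dim probe sets in 4 members, small regional differences were not resolved.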
